A study of Homo sapiens with 6 samples.

Results

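The NF-kB pathway genes followed here are 33 genes that encode the subunits, inhibitors, adaptors and kinases of the pathway and some of its targets. They were taken by symbol from a written list, and all 33 were found by Entrez identifier among the 23459 genes of the count table. A filter on low counts left 12079 genes for testing, among them 32 of the 33, and TNFAIP2 was left out. Expression was measured by RNA-seq in Raji cells, an established human line from a Burkitt's lymphoma that the labels describe as derived from germinal centre (GC) B cells. Both groups were infected with lentivirus made in 293T cells for 5 days and kept for 7 days in puromycin at 3 µg/ml. The virus of the 3 control libraries was the empty vector, and that of the 3 IRF4-overexpressing libraries carried human IRF4 cDNA. The labels give neither the promoter that drives the cDNA nor whether replicates were separate infections, so the spread behind each p-value is that among these libraries and may be technical. Cells with stable integrations were selected, and no clone is named. The comparison is of RNA levels with and without the added IRF4.

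NF-kB is a family of transcription factors built as dimers of REL, RELA, RELB and the products of NFKB1 and NFKB2, which IkB proteins hold in the cytoplasm of resting cells. In the canonical route, receptors recruit TRAF adaptors and ubiquitin ligases, which lead through TAK1 to the IkB kinase complex and the loss of IkB. In the noncanonical route, NIK and CHUK drive the processing of the NFKB2 precursor. Many target genes encode brakes of the pathway, and in B cells others encode survival, costimulatory and migration proteins. IRF4 is itself a known NF-kB target in activated B cells.

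The libraries held 27681979 to 46210702 counts. Values are given as CPM, the count scaled to library size with the TMM method, always in the order of replicates 1, 2 and 3, and a gene is said to rise or fall where its Benjamini-Hochberg adjusted p from edgeR's quasi-likelihood test was under 0.05. IRF4 was at 1.02, 1.38 and 1.37 CPM in control against 149.99, 120.5 and 125 CPM in IRF4-overexpressing libraries, with cDNA and endogenous transcripts counted together. The 12 B cell markers were all detected and summed to 5364 to 6296 CPM in control and 5218 to 6245 CPM in IRF4-overexpressing libraries. CD74 was the largest part, at 2924 and 2545 CPM on average. None of the 12 rose or fell by the test, with log2 fold changes from -0.52 (PAX5) to 0.48 (CR2). CR2, MS4A1 and BLK were higher without overlap, and the groups of the others overlapped. The 10 T and NK cell markers summed to at most 0.828 CPM in any library, and the 9 epithelial and kidney markers to 0.0996 to 0.273 CPM in control and 0.320 to 0.837 CPM in IRF4-overexpressing libraries. Most of that epithelial difference was CDH1 (3, 0 and 2 counts against 9, 29 and 16, not tested), while KRT8 and PAX2 overlapped. The 8 mesenchymal markers summed to 45.9 to 56.5 CPM, nearly all of it PDGFRA, whose groups overlapped. COL1A1 was higher without overlap at 19, 30 and 31 counts against 129, 44 and 81 (edgeR adjusted p = 0.192). LUM, not tested, was too (3, 0 and 0 counts against 13, 14 and 9). PDGFRB and DCN overlapped, and COL1A2, COL3A1 and THY1 had 0 counts. One axis held 74.3% of the variance within groups. It set control replicate 1 and IRF4-overexpressing replicates 2 and 3, called side A here, apart from the remaining libraries, called side B. The sides were read from the same counts, so p-values from fits with a term for the side are too small. Without IRF4-overexpressing replicate 1 the group runs with the axis, so a pass in that fit may belong to either.

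With added IRF4, 5 of the 32 tested members rose and 0 fell. EBI3 rose 2.91-fold, CD83 1.83-fold, TRAF1 1.81-fold, NFKBIZ 1.62-fold and CYLD 1.57-fold. None of the 5 subunit genes and none of the 7 genes of kinases and their partners passed the test. The members that rose were 2 activation targets, 1 adaptor, 1 nuclear IkB protein and 1 deubiquitinase. They made up 15.6% of the tested members, beside 2.98% higher and 0.182% lower among all genes tested. The members were chosen with earlier results of these data known, so this share is not independent evidence. DESeq2 called 8 members higher and 0 lower, where it called 4.78% and 1.45% of all genes. At an unadjusted edgeR p under 0.05, 9 members were higher and 2 lower, against 11.3% and 8.18% of all genes. The median log2 fold change was 0.08 over the members and 0.01 over all genes, so the typical member lay near the middle of all genes. The groups did not overlap in 11 members that were higher (34.4%) and 3 that were lower (9.38%), against 13.5% and 11.9% of all genes. Leaving out 1 library moved the count of members that were higher from 5 to between 1 and 3, or to 11 without IRF4-overexpressing replicate 1, where 9 were lower and the group runs with the library axis. That last fit called 2436 of 12226 genes tested higher and 3071 lower.

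**Figure D1:**
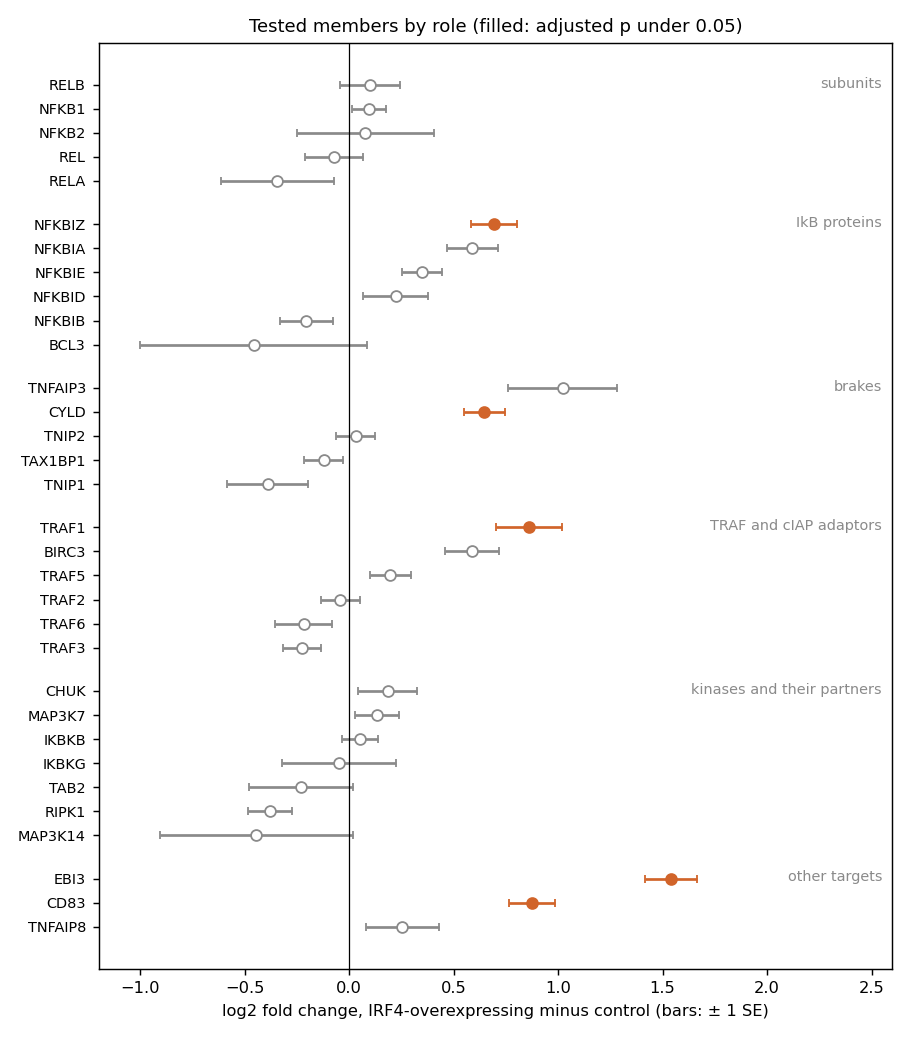
Log2 fold change (IRF4-overexpressing minus control, horizontal axis) of the 32 tested members, grouped by role, with bars of 1 SE. The 5 filled points passed edgeR's test and lie between 0.65 and 1.54, while the 5 subunit genes lie between -0.34 and 0.10.

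Among the targets, EBI3 encodes the subunit shared by the cytokines IL-27 and IL-35. The control libraries held 8.24, 9.97 and 10.7 CPM of it, and the IRF4-overexpressing libraries 28.5, 26.9 and 28.8 CPM. Every IRF4-overexpressing library was thus above every control library, and the 3 lay close together on both sides of the axis. The log2 fold change was 1.54, with an SE of 0.13 (edgeR adjusted p = 0.00198), and EBI3 passed in all 6 fits without 1 library, with 1.43 to 1.62. CD83, a surface marker of activated B cells and dendritic cells, was at 136, 129 and 123 CPM against 206, 250 and 254 CPM. The groups did not overlap, and IRF4-overexpressing replicate 1 was the lowest of its group. The log2 fold change was 0.87, with an SE of 0.11 (edgeR adjusted p = 0.0102). Without control replicate 2 or 3 the adjusted p was 0.0626 and 0.0629. TNFAIP8, which encodes an inhibitor of cell death, was at 43.1, 34.9 and 35.3 CPM against 34.5, 48.7 and 51.8 CPM, and the groups overlapped. The deposited table listed 0, 4 and 1 counts of TNFAIP2, which encodes a protein of membrane protrusions, in control and 10, 6 and 9 in IRF4-overexpressing libraries. It was not tested, and it stood at 0.0587 ± 0.0792 and 0.213 ± 0.0683 CPM (SD, n = 3 each).

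Beside these rises, the 10 myeloid markers summed to 3.06 to 3.31 CPM in control and 5.64 to 9.15 CPM in IRF4-overexpressing libraries. Of the 10, ITGAM rose, at 17 to 29 counts per control and 83 to 122 per IRF4-overexpressing library. CSF1R had 13, 14 and 16 counts against 140, 45 and 67, without overlap (log2 fold change 2.38, edgeR adjusted p = 0.0846). LYZ and CD68 did not pass, and their groups overlapped (log2 fold changes 0.18 and 0.20). CD14, CD33 and S100A8 had 0 to 11 counts per library, were not tested and overlapped too. MPO, S100A9 and FCGR3A were at 0 counts in all libraries. The part of myeloid transcripts in the rises of EBI3 and CD83 was not tested. In bulk RNA, more cells with a transcript and more of it per cell cannot be told apart.

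**Figure D2:**
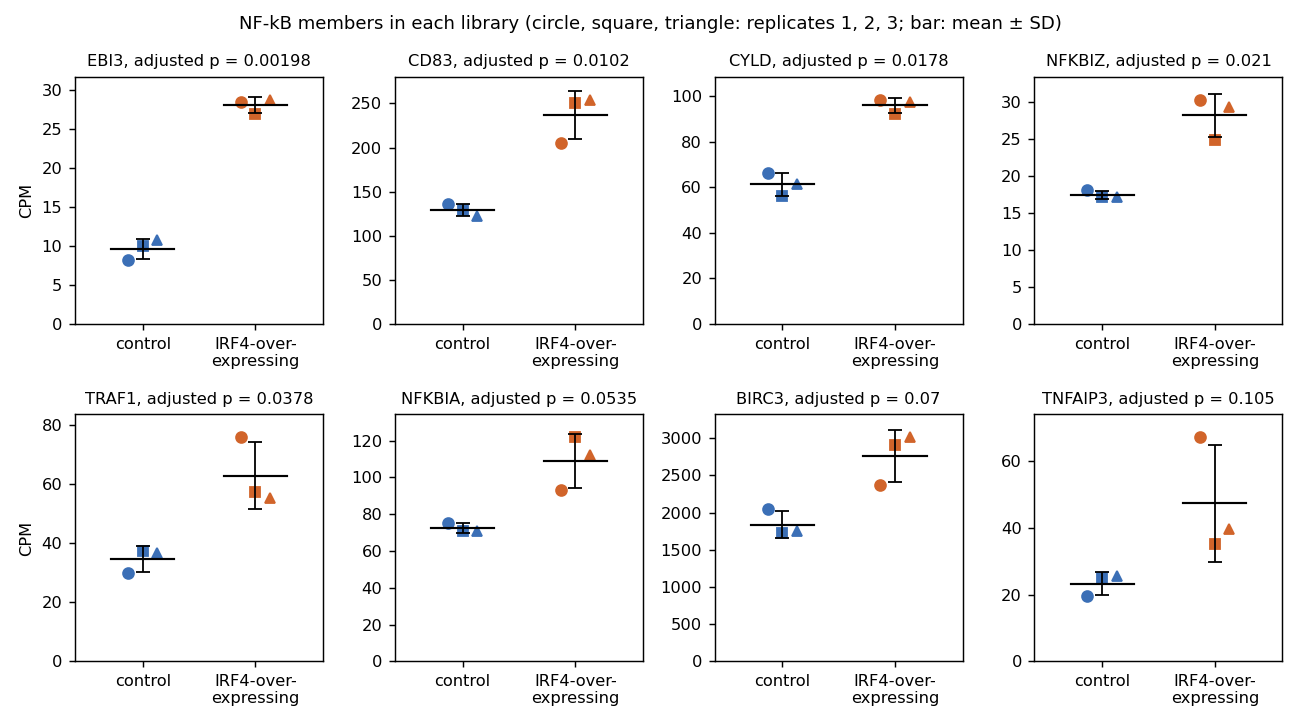
CPM (vertical axes from 0) of the 5 members that rose and of NFKBIA, BIRC3 and TNFAIP3, which did not pass, in the 3 control and 3 IRF4-overexpressing libraries. Symbols mark replicates 1 to 3 and bars the mean ± SD; in all 8 panels the groups do not overlap, and IRF4-overexpressing replicate 1 stands apart from replicates 2 and 3 in TNFAIP3 (67.2 against 35.0 and 39.6 CPM).

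The promoter windows of 4 members that rose are shown because they differ in the elements they hold. Each is the 250 bases before the gene's start in RefSeq's annotation of GRCh38.p14, a build other than the hg19 named for the deposited data. Capitals mark matches, on either strand, to the kB pattern GGGNNNNNCC, the interferon response core GAAANNGAAA or the ETS-IRF composite element GGAANNGAAA, to which IRF4 is known to bind with ETS partners.
EBI3, chr19:4229273-4229522, plus strand: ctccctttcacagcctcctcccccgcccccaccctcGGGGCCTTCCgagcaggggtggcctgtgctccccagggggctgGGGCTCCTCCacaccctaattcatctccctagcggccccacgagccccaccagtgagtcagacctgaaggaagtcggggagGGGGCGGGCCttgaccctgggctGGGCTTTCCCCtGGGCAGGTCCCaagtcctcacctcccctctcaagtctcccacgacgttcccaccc
NFKBIZ, chr3:101827740-101827989, plus strand: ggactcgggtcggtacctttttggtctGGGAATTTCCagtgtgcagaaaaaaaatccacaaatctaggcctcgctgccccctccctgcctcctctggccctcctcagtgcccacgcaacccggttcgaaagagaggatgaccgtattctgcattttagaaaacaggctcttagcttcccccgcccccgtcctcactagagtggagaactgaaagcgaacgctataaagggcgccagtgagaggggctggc
CD83, chr6:14117006-14117255, plus strand: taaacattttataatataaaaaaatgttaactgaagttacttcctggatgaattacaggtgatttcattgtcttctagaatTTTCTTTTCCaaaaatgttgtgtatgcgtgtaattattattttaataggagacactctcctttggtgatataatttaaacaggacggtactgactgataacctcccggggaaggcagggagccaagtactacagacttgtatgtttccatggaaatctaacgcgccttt
TRAF1, chr9:120929172-120929421, minus strand: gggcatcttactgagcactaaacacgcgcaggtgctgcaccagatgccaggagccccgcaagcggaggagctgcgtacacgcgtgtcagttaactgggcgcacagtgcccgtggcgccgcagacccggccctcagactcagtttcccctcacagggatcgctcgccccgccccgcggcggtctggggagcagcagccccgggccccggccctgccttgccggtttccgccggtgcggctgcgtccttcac

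The EBI3 window held several overlapping kB matches on both strands, the nearest 45 bases before the start. The NFKBIZ window held 1 kB match, 223 to 214 bases before the start. The CD83 window had no kB match and 1 match to the composite element, on the opposite strand 169 to 160 bases before the start. For CD83, the bases after that RefSeq start were not found in the GENCODE transcripts searched, so the window may not be the one in use. The TRAF1 window matched none of the 3 patterns, which says only that these letters are not in this window. CYLD, the other member that rose, had kB matches alone. The kB pattern is loose and was found in 25 of the 30 members with a window (83.3%), in 53.7% of all 27305 windows and in 68.5% of those of tested genes. Response core matches were in 1 member and 3.07% of all windows, and composite matches in 2 members (CD83 and RELA) and 2.44%. RELB, NFKBIE and IKBKB had no window.

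The kB match of NFKBIZ was then looked for letter by letter, after it had been seen. It stands in the windows of 4 members, shown because their responses differ.
NFKBIZ: GGGAATTTCC
NFKB1: GGGAATTTCC
NFKBIA: GGAAATTCCC
REL: GGAAATTCCC

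The last pair holds it on the opposite strand. The same 10 bases are in 43 of 27305 windows (0.157%). The log2 fold changes of these 4 members were 0.69 for NFKBIZ, 0.59 for NFKBIA, 0.09 for NFKB1 and -0.07 for REL (0.024 with library sizes alone), and of them NFKBIZ passed the test. A match is a description of letters and not of binding.

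Among the inhibitors, NFKBIZ encodes an atypical nuclear IkB protein that modifies transcription. Its control values were 18.1, 17.1 and 17.2 CPM, and its IRF4-overexpressing values 30.4, 24.9 and 29.5 CPM. The control libraries lay within about 1 CPM of each other, and all IRF4-overexpressing libraries were above them. The log2 fold change was 0.69, with an SE of 0.11 (edgeR adjusted p = 0.021). It lost its call without any of control replicates 1, 2 and 3 or without IRF4-overexpressing replicate 3 (edgeR adjusted p = 0.112, 0.148, 0.149 and 0.121). NFKBIA, the classical IkB protein and a feedback target, was at 75.5, 70.8 and 71.1 CPM against 93.1, 122 and 112 CPM. These groups did not overlap either, but the IRF4-overexpressing libraries spread over 1.31-fold and the adjusted p missed the threshold (log2 fold change 0.59, SE 0.12, edgeR adjusted p = 0.0535). NFKBIA passed with DESeq2 (adjusted p = 0.00177), with library sizes alone, with either other filter, with a term for the side, and without IRF4-overexpressing replicate 1.

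The other IkB genes did not pass. NFKBIE, another cytoplasmic IkB protein, was at 37.7, 42.4 and 37.3 CPM against 46.6, 51.9 and 50.9 CPM, without overlap (log2 fold change 0.35, SE 0.10, edgeR adjusted p = 0.127). NFKBID, a nuclear IkB protein, was at 4.61 ± 0.726 and 5.36 ± 0.441 CPM, and NFKBIB, a further cytoplasmic one, at 36.3 ± 3.1 and 31.5 ± 4.02 CPM (SD, n = 3 each). BCL3, whose nuclear product acts with dimers of the NFKB1 and NFKB2 products, was at 2.54, 4.83 and 5.28 CPM against 5.78, 2.13 and 1.37 CPM. The 3 libraries of side A were the 3 lowest for BCL3, whatever their group.

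Of the genes that limit signalling, CYLD encodes a deubiquitinase that removes the chains on which the kinases assemble. It was at 66.4, 56.0 and 61.4 CPM in control and at 98.5, 92.0 and 97.3 CPM in IRF4-overexpressing libraries, with no overlap and little spread in either group. The log2 fold change was 0.65, with an SE of 0.10 (edgeR adjusted p = 0.0178). Of the 6 fits without 1 library, CYLD passed in the 1 that left out IRF4-overexpressing replicate 1, and the adjusted p was 0.063 to 0.124 without each of the other 5 libraries. TNFAIP3 encodes A20, the ubiquitin-editing enzyme that ends canonical signalling and that NF-kB itself induces. It was at 19.5, 24.8 and 25.6 CPM against 67.2, 35.0 and 39.6 CPM. All IRF4-overexpressing libraries were higher, but they spread over 1.92-fold with replicate 1 highest, and the log2 fold change of 1.02 did not pass (SE 0.26, edgeR adjusted p = 0.105). It passed with DESeq2 (adjusted p = 0.0079), with a term for the side (edgeR adjusted p = 0.00284) and in the fit that left out replicate 1 of that group, where its log2 fold change was 0.67.

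Genes for partners of A20 did not pass. TNIP1, which brings A20 to ubiquitin chains, was at 213, 261 and 265 CPM against 244, 168 and 151 CPM, with side A below side B (log2 fold change -0.39, SE 0.19). TNIP2, a related adaptor, was at 42.4 ± 2.91 and 43.4 ± 2.15 CPM (SD, n = 3 each). TAX1BP1, an adaptor of A20 and of selective autophagy, was at 284, 247 and 248 CPM against 228, 242 and 246 CPM. Its groups did not overlap, with a gap smaller than the spread of the controls (log2 fold change -0.12, SE 0.09).

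Among the adaptors, TRAF1, a TRAF protein without a RING domain that NF-kB induces, was at 29.7, 37.5 and 36.8 CPM in control and at 75.9, 57.3 and 55.3 CPM in IRF4-overexpressing libraries. The groups did not overlap, and replicate 1 was the lowest control and the highest IRF4-overexpressing library. The log2 fold change was 0.86, with an SE of 0.16 (edgeR adjusted p = 0.0378). TRAF1 passed in 1 of the 6 fits without 1 library, that without IRF4-overexpressing replicate 1, and had an adjusted p of 0.0922 to 0.187 without each of the other 5 libraries. It also missed the threshold with a filter of 1 CPM in 3 libraries (edgeR adjusted p = 0.0548). BIRC3, the ubiquitin ligase cIAP2, was at 2045, 1722 and 1752 CPM against 2367, 2909 and 3017 CPM. Its groups did not overlap (log2 fold change 0.59, SE 0.13, edgeR adjusted p = 0.07), and it passed with DESeq2 (adjusted p = 0.00379), with library sizes alone, with a term for the side, and without IRF4-overexpressing replicate 1.

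The other TRAF genes did not pass. TRAF2, which recruits the cIAP ligases, was at 48.1 ± 3.04 and 46.7 ± 2.52 CPM, and TRAF6, the adaptor of Toll-like and interleukin-1 receptors, at 23.8 ± 2.09 and 20.4 ± 3.05 CPM (SD, n = 3 each). TRAF5, an adaptor of CD40 and related receptors, was at 33.7, 32.3 and 37.5 CPM against 39.5, 37.7 and 41.4 CPM. These groups missed overlap by less than 1 CPM (log2 fold change 0.20, SE 0.10, edgeR adjusted p = 0.304). TRAF3, the adaptor that keeps NIK low in resting cells, was at 130.1, 132 and 134 CPM against 122, 110.2 and 106 CPM. Every IRF4-overexpressing library was lower, without passing the test (log2 fold change -0.23, SE 0.09, edgeR adjusted p = 0.235).

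With all 6 libraries and group as the only term, no gene of the kinases and their partners passed by edgeR or DESeq2. At an unadjusted edgeR p under 0.05 there was 1, RIPK1. RIPK1, the scaffold kinase of the TNF receptor complex, was at 37.6, 39.5 and 41.9 CPM against 33.4, 30.6 and 27.6 CPM. All 3 IRF4-overexpressing libraries were below all controls (log2 fold change -0.38, SE 0.11, edgeR adjusted p = 0.13). RIPK1 passed with a term for the side (edgeR adjusted p = 0.0437) and in the fit that left out IRF4-overexpressing replicate 1 (edgeR adjusted p = 0.00519). The limits given with the library axis apply to both passes. IKBKB, a catalytic kinase of the canonical route, was at 31.0 ± 1.41 and 32.2 ± 0.539 CPM (SD, n = 3 each). CHUK, the kinase of both routes, was at 124 ± 14.4 and 140.4 ± 20.3 CPM, and MAP3K7, which encodes TAK1, at 171 ± 11.9 and 188 ± 17.4 CPM (SD, n = 3 each). TAB2, the ubiquitin-binding partner of TAK1, was at 44.8 ± 4.12 and 38.2 ± 14.4 CPM (SD, n = 3 each). IKBKG, the regulatory subunit NEMO, had 28 to 59 counts per library. It is known to have a near-identical partial copy in the genome, so that its low value is uncertain.

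MAP3K14 encodes NIK, the kinase that starts the noncanonical route. It was at 21.6, 33.1 and 35.5 CPM in control and at 39.9, 12.3 and 14.2 CPM in IRF4-overexpressing libraries. The highest and the lowest library were both IRF4-overexpressing. The log2 ratio of group means was -0.71 within side A and 0.22 within side B, and the log2 fold change of -0.44 had an SE of 0.46. Without IRF4-overexpressing replicate 1 it was -1.19 (edgeR adjusted p = 0.00201), and without replicate 2 of that group -0.13.

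No subunit gene passed with all 6 libraries. NFKB1, which encodes p105 and p50, was at 105, 109.9 and 109.1 CPM against 118, 112 and 115 CPM, without overlap but with a log2 fold change of 0.09, with an SE of 0.08 (edgeR adjusted p = 0.496). REL, the c-Rel subunit prominent in B cells, was at 54.8 ± 7.27 and 52.1 ± 6.65 CPM, and RELB, the partner of p52, at 63.0 ± 9.19 and 67.5 ± 8.04 CPM (SD, n = 3 each). RELA, the p65 subunit, was at 31.5, 45.7 and 44.7 CPM against 45.6, 25.2 and 25.3 CPM. Its 3 low libraries were those of side A (log2 fold change -0.34, SE 0.27), and without IRF4-overexpressing replicate 1 its log2 fold change was -0.70 (edgeR adjusted p = 0.00724). NFKB2, which encodes p100 and p52, was at 47.7, 72.8 and 75.6 CPM against 106, 49.1 and 52.1 CPM, again with side A low (log2 fold change 0.08, SE 0.33). These 5 genes had 932 to 5536 counts per library.

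The library sides separated 11 members. In 8, NFKB2, RELA, RELB, NFKBIB, BCL3, TNIP1, TAB2 and MAP3K14, all 3 libraries of side A were below all of side B. In 3, MAP3K7, CHUK and TNFAIP8, they were above. These are 25.0% and 9.38% of the tested members, against 22.5% and 23.6% of all genes tested. The sides were read from the same counts, so the shares describe these libraries only. For the 5 members that rose, the log2 ratios of group means within the sides were 1.75 and 1.46 for EBI3, 0.89 and 0.71 for CD83, 0.92 and 1.03 for TRAF1, 0.59 and 0.82 for NFKBIZ, and 0.51 and 0.75 for CYLD, side A first. The same ratios were 0.63 and 0.39 for NFKBIA, 0.53 and 0.45 for BIRC3, and 0.94 and 1.41 for TNFAIP3. Each side has 1 library of 1 group, so these ratios have no error.

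Without IRF4-overexpressing replicate 1, both remaining IRF4-overexpressing libraries lie on side A, and group and axis are then partly the same contrast. That fit called 3071 of 12226 genes tested lower and 2436 higher. Among the 32 tested members, edgeR called 9 lower, with adjusted p up to 0.0328. Their log2 fold changes were -0.70 for RELA, -0.32 for NFKBIB, -1.29 for BCL3, -0.64 for TNIP1, -0.30 for TRAF3, -0.35 for TRAF6, -0.46 for RIPK1, -0.59 for TAB2 and -1.19 for MAP3K14. Besides the 5 members that rose, it called NFKBIA, NFKBIE, TNFAIP3, BIRC3, CHUK and TNFAIP8 higher, CHUK with the highest adjusted p (0.0351). No other fit without 1 library called a member outside the 5.

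**Figure D3:**
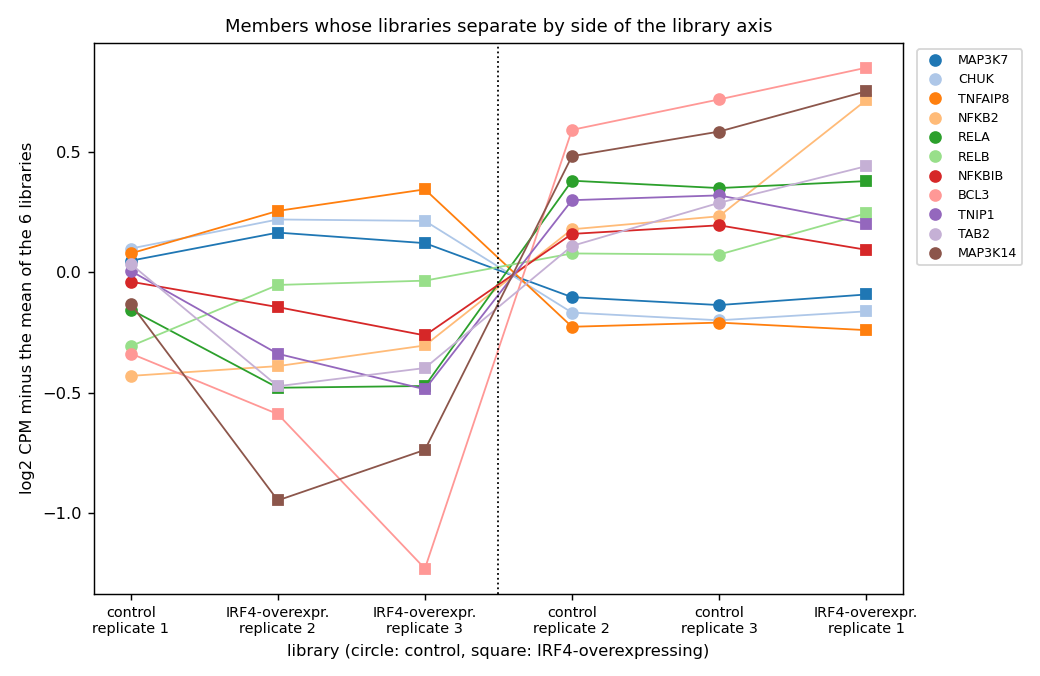
Log2 CPM relative to the mean of the 6 libraries (vertical axis) for the 11 members whose libraries separate by side, with side A left and side B right of the dotted line. Circles are control and squares IRF4-overexpressing libraries; MAP3K14 and BCL3 span the widest range, and IRF4-overexpressing replicate 1 lies with the controls of side B.

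Compared per length, as CPM per kilobase of the deposited gene width, BIRC3 was the most abundant member at 266 in control and 400 in IRF4-overexpressing libraries. In control TNIP1 followed (76.4) and then TAX1BP1 (70.9), CD83 (51.2) and NFKBIA (46.3). In IRF4-overexpressing libraries the order was CD83 (93.9), NFKBIA (69.6), TAX1BP1 (65.1) and TNIP1 (58.2). On that scale EBI3 stood at 8.49 and 24.7. The order of the 5 subunit genes in control was RELB (27.6), REL (21.1), NFKB1 (20.5), NFKB2 (16.8) and RELA (12.1). RELB was above REL and NFKB2 above RELA in each of the 6 libraries, while the order of REL and NFKB1 differed between control libraries. NFKB2 was below NFKB1 in every library but IRF4-overexpressing replicate 1. TRAF1 was at 7.58 and 13.7, CYLD at 5.06 and 7.91, and NFKBIZ at 4.16 and 6.73 on the same scale.

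**Figure D4:**
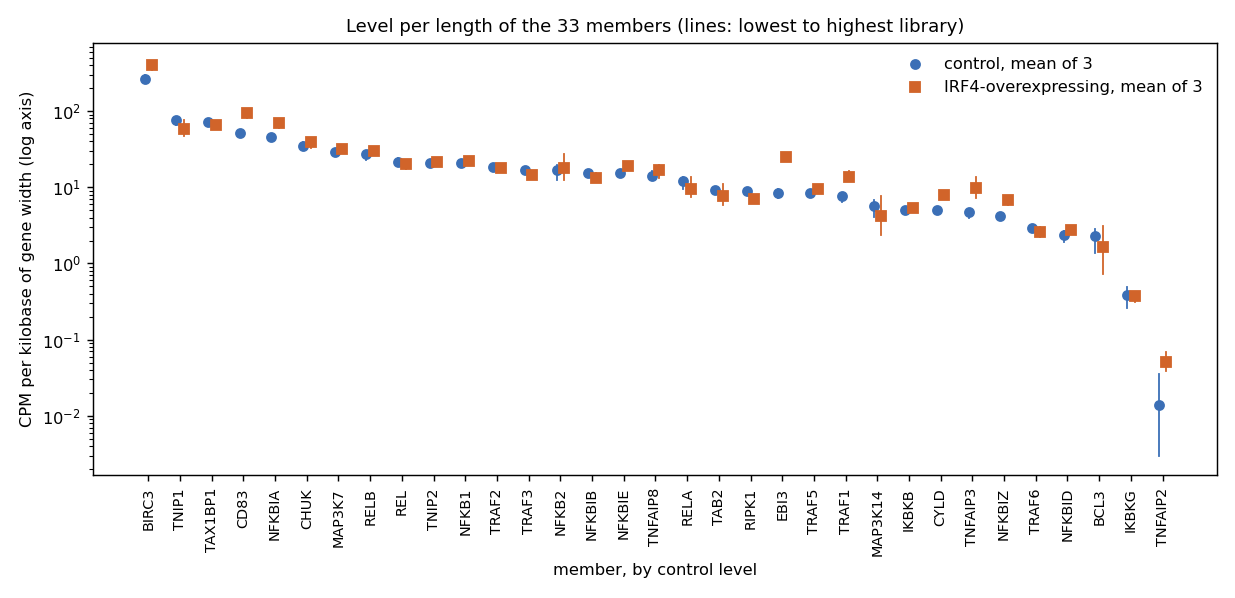
Level per length (CPM per kilobase of gene width, logarithmic vertical axis) of the 33 members, ordered by control level, with circles and squares for group means and lines from the lowest to the highest library. EBI3 is the member with the widest gap between groups among those tested, and the line of TNFAIP2 is drawn from 0.003 because 1 control library was at 0.

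The other genes of the pathway were described with a list of 94 receptors, signal proteins and further targets, of which 84 were tested. Of these, 20 were called higher (23.8%) and 1 lower (1.19%), against 2.98% and 0.182% of all genes tested, and the median over the 84 was 0.34 on the log2 scale, against 0.01. The list was written with earlier results of these data known, so its direction is not independent evidence. Of the 36 tested targets, 13 rose and 0 fell (0 at an unadjusted edgeR p under 0.05 and 0 by DESeq2), and 35 (97.2%) had a positive log2 fold change, against 51.0% of all genes tested. They included CCR7, a receptor that guides B cells to T cell zones (17.0, 20.8 and 20.6 CPM against 82.7, 61.4 and 55.4 CPM), and the survival genes BCL2A1 (9.88, 8.52 and 7.63 against 18.6, 30.3 and 31.1 CPM) and BCL2 (16.5 ± 1.39 against 33.3 ± 1.62 CPM, SD, n = 3 each). In each of these genes every IRF4-overexpressing library was above every control library. The cytokine gene IL10, the adhesion gene VCAM1, the interleukin-2 receptor gene IL2RA, the costimulatory gene CD80, the death receptor gene FAS and the oxysterol receptor gene GPR183 rose by log2 fold changes of 1.21, 1.37, 1.85, 0.95, 0.76 and 1.02. CCL5 (3.99), TAP1 (0.73), IRF1 (0.61) and IRF2 (0.54) rose too, and are known to respond to interferon as well as to NF-kB. CCL5 had 5, 1 and 0 counts in control, so its size is loosely set. CCL3, CCL4, CCL5 and STAT5A, all counted among the 35, had at most 6 counts per control library. Without the IRF4-overexpressing libraries they would have missed the filter on low counts, so their entry into the test favoured a rise. The counts of targets are not evidence of a direction for these genes.

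Of the 15 tested receptors, 4 rose and 0 fell (1 was lower at an unadjusted edgeR p under 0.05 and by DESeq2, the endotoxin receptor gene TLR4). TLR7, an RNA sensor, was at 0.722, 0.855 and 0.738 CPM against 7.00, 4.83 and 4.99 CPM (log2 fold change 2.86, SE 0.21, edgeR adjusted p = 0.00127). TNFRSF9, which encodes 4-1BB, was at 2.41, 2.27 and 2.57 CPM against 7.70, 6.45 and 6.67 CPM. CD40, the receptor of T cell help, was at 67.2 ± 3.14 CPM against 95.1 ± 6.11 CPM (SD, n = 3 each), a log2 fold change of 0.50 (edgeR adjusted p = 0.0389). TNFRSF8, which encodes CD30, rose from 5 to 12 counts per control library to 20 to 36 (log2 fold change 1.66). Among 33 tested adaptors and signal enzymes, 3 rose: RNF31, the catalytic part of the linear ubiquitin ligase (log2 fold change 0.57), TANK, a TRAF-binding adaptor (0.98), and TRAF3IP3 (1.76), which had 3 to 4 counts per control library. Without the IRF4-overexpressing libraries TRAF3IP3 and TNFRSF8 would have missed the filter on low counts. Their entry into the test thus favoured a rise. The kinase gene PRKCB, which acts downstream of the B cell receptor, fell by 0.55 on the log2 scale, from 137 to 139 CPM in control to 91.2 to 97.9 CPM.

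Of these 21 genes, TLR7, TNFRSF9, CCR7, BCL2 and VCAM1 passed in all 6 fits without 1 library. FAS and IL10 passed in 4, BCL2A1, CCL5 and TAP1 in 3, and IL2RA in 2. CD40, TNFRSF8, RNF31, TANK, TRAF3IP3, PRKCB, CD80, GPR183, IRF1 and IRF2 passed in 1, that without IRF4-overexpressing replicate 1. TRAF3IP3, TNFRSF8 and IRF2 also lost their calls with no filter, and TRAF3IP3 with DESeq2. With a filter of 1 CPM in 3 libraries, TNFRSF8, TRAF3IP3, CCL5 and IL2RA were not tested.

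**Figure D5:**
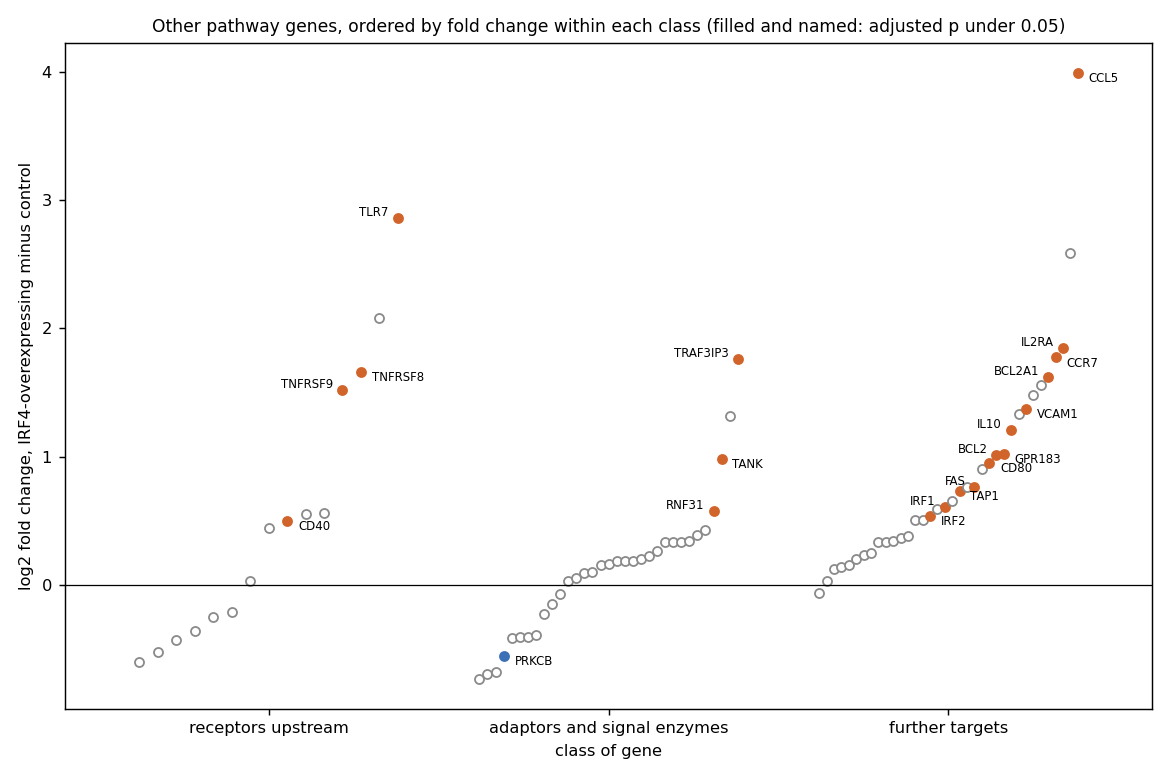
Log2 fold change (vertical axis) of the 84 tested genes of the wider pathway in 3 classes, ordered by value within each class. Filled and named points passed edgeR's test: 13 of 36 targets, 4 of 15 receptors and 3 of 33 signal proteins were higher, and PRKCB was lower. Of the named points, CCL5, TNFRSF8 and TRAF3IP3 met the filter on low counts through the IRF4-overexpressing libraries.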

How the data were processed

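The authors deposited 1 table of counts per Entrez gene with a column for each library; its values are whole and its column totals differ, as in unscaled counts. Its control columns are named WT. A stranded mRNA kit was used per the labels' protocols. The submitters' processing notes name hg19 and mm9; the aligner, counter, annotation and strand setting are not given in the sources used here. Symbols came from RefSeq's GRCh38.p14 gene table, in which 151 rows (0.122% of counts) had no match. A deposited width per gene served for levels per length.

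The test was edgeR's (version 4.0.16, R 4.3.3), after filterByExpr and TMM scaling, with a group-only design, two-sided quasi-likelihood tests and Benjamini-Hochberg adjustment over all genes tested. SEs are the absolute log2 fold change divided by the square root of F. The script was tested on simulated data, where most of the largest planted changes were called and most of the smallest were not. Simulated counts were drawn for each gene separately, without the library axis of these data, so recovery here may differ. A gene that did not pass is thus not shown to be unchanged. Members, lists and the rule for named genes (IRF4, all members, other pathway genes that passed) were chosen with earlier results of these data known. Within-side log2 ratios used a pseudocount of 0.01 CPM. DESeq2 1.42.0, other scalings and filters, the replicate number, a term for the side and leaving out each library were alternatives. Replicate pairs differed by more than counting noise (chi-square per gene 6.49 to 185). Figures used matplotlib 3.10.9.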

Additional observations from a re-analysis of the deposited data

How the results depend on the processing

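The 5 members that rose kept their calls with median-ratio size factors, with library sizes alone, with no filter, with DESeq2 and with a term for the library side; with a filter of 1 CPM in 3 libraries TRAF1 lost its call. DESeq2 called 577 genes higher and 175 lower, 8 members higher, and 2 other pathway genes lower. Library sizes alone left 13 genes lower. They also shifted the median over all genes to 0.10 and over the members to 0.18, on the log2 scale, so that REL, TRAF2 and IKBKG changed sign, to 0.024, 0.053 and 0.045. With the side as a term, 709 genes were higher and 389 lower, 8 members higher and 1 lower, 32 other pathway genes higher and 3 lower, and REL was at 0.0086; these p-values are too small, since the sides were read from the same counts.

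The replicate block left 3 genes higher and 0 lower, with 0 members and 0 other pathway genes higher and 0 other pathway genes lower (EBI3 had the lowest edgeR adjusted p of the 5, 0.0729). Deviations of same-numbered libraries correlated at -0.649, -0.219 and -0.467. In each pair the libraries lie on opposite sides of the axis, so these values cannot show whether a number marks a shared batch.

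Without 1 library, 120 to 2436 genes were higher and 3 to 3071 lower, 1 to 11 members higher and 0 to 9 lower, and 6 to 44 other pathway genes higher and 0 to 14 lower. The highest counts came without IRF4-overexpressing replicate 1, where both remaining libraries of that group lie on side A and the group runs with the axis. The log2 fold changes of NFKB2 (-0.38 to 0.29), REL (-0.17 to 0.039), RELB (-0.022 to 0.16), TNIP2 (-0.015 to 0.082) and IKBKG (-0.28 to 0.18) changed sign. Fits without 1 library have fewer samples; beyond that the cause was not tested. Depth limits TNFAIP2, with 0 to 10 counts per library, and IKBKG, with 28 to 59.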

Other observations

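Among the members that rose, NFKBIZ and TRAF1 each overlap another gene of the table by the RefSeq annotation, and without a stated strand setting reads of such pairs cannot be told apart. NXPE3, which overlaps NFKBIZ, was at 36.2 ± 3.45 CPM in control and 27.97 CPM on average in IRF4-overexpressing libraries (log2 fold change -0.37, edgeR adjusted p = 0.317). PHF19, which overlaps TRAF1, was at 122 ± 3.93 CPM in control and 98.6 CPM on average in IRF4-overexpressing libraries (log2 fold change -0.31, edgeR adjusted p = 0.121). Both had log2 fold changes opposite in sign to the member they overlap. EBI3 and CD83 overlap no gene in that annotation, and CYLD none that is in the count table.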
